A study of Mus musculus with 6 samples.

Results

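The genes of carnitine uptake, synthesis and acyl transfer were examined in the whole epididymis of WT and Ocln-KO mice. They are 10 genes chosen by name, and all 10 were among the 57127 genes listed in the count table and abundant enough to be tested. RNA of 3 WT and 3 Ocln-KO libraries was depleted of rRNA and sequenced. The WT mice were adult C57BL/6 males without a mutation, and the Ocln-KO mice were adult males of the same labelled strain with the Ocln-/- genotype, bred from heterozygous pairs because males without Ocln are sterile. The whole organ was sequenced, so fewer cells of a type and less RNA per cell cannot be told apart. The source of the RNA is described both as separate extractions from mice and as pooled samples, so n counts libraries, and a p-value measures only the spread between them.

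Carnitine carries fatty acyl groups across membranes. Cells take it up through organic cation/carnitine transporters (OCTNs), or make it from trimethyllysine, and carnitine acyltransferases then join it to acyl groups so that these can enter the mitochondrial matrix or leave the peroxisome. The epididymis concentrates carnitine from blood into the fluid around sperm, which use it in maturation and as a store of acetyl groups. Among the members, Slc22a5 (OCTN2), Slc22a4 (OCTN1) and Slc22a21 (OCTN3) encode transporters, Tmlhe and Bbox1 encode the first and the last enzyme of synthesis, and Cpt1a, Slc25a20 and Cpt2 encode the mitochondrial carnitine shuttle. Crat and Crot encode the acyltransferases for short and medium chains.

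The 3 OCTN genes lie side by side on the minus strand of chromosome 11 (GRCm38), Slc22a5 from 53864542 to 53891660, Slc22a21 from 53949965 to 53980332 and Slc22a4 from 53983123 to 54028090. Only 2790 bases separate Slc22a21 from Slc22a4, while 58304 bases lie between Slc22a5 and Slc22a21. Their coding sequences are alike, which matters for reads that could belong to more than one of them, so the first 150 coding bases of each (GENCODE transcripts, 5′ to 3′) are shown with the 17 positions at which the 3 genes are not all the same in capitals.
Slc22a5: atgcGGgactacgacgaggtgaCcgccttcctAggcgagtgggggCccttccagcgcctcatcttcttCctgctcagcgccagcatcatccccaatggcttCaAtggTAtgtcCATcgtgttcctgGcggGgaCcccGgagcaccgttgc
Slc22a21: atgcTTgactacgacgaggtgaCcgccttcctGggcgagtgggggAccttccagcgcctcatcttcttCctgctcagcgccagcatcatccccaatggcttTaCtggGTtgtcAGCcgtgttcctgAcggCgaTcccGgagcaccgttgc
Slc22a4: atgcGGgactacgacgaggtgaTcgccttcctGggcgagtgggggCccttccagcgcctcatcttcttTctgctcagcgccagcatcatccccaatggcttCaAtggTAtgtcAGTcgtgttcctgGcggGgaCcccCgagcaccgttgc
Over the whole coding sequence, Slc22a5 and Slc22a21 were identical at 90.5% of 1671 aligned bases, with a longest identical run of 157 bases. Slc22a4 was identical to Slc22a5 at 77.1% and to Slc22a21 at 75.4% of the aligned bases. Of all stretches of 50 bases in the transcripts, 26.3% of those of Slc22a5 and 22% of those of Slc22a21 also occur in transcripts of other genes, against 2.64% for Slc22a4. The counting could therefore have split or dropped reads of Slc22a5 and Slc22a21. Both values are uncertain, and these shares do not bound by how much. For Bbox1, Crat and Cpt2 the share was 0%, for Crot, Cpt1a and Slc25a20 it was 2.02%, 0.707% and 5.61%, and Tmlhe was not searched.

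The libraries held between 30646424 and 38870780 counts in all. Levels are given as CPM, the count of a gene relative to the size of its library after edgeR's TMM scaling, and a single count is worth 0.0267 to 0.0314 CPM. Values after ± are SDs over libraries, with n = 3 for each genotype throughout. A test of the genotype was run for 19691 genes with edgeR's quasi-likelihood method, and Benjamini-Hochberg adjustment over all of them gave the false discovery rate (FDR). A gene was called at an FDR under 0.05. A DEG, by the thresholds of the study's methods, also had a fold change over 2 or under 0.5. The study applied these thresholds with DESeq2, and they are applied to edgeR's test here. Ocln itself averaged 85.5 ± 6.51 CPM over the WT libraries against 15.1 ± 0.231 CPM over the Ocln-KO libraries, with FDR = 0.000108 and a log2 fold change of -2.50. Along the first principal component, which held 47.2% of the variance, Ocln-KO replicate 3 stood apart at -86.3, with the other Ocln-KO libraries at -17.7 and -29.1 and the WT libraries between 37.0 and 52.8.

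Only 1 of the 10 members was called, and none was a DEG, where 8.95% of all genes tested were called and 3.19% were DEGs. That gene, Slc22a21, was higher in Ocln-KO, as were 3.91% of all genes tested. No member was called lower by edgeR, which called 5.04% of all genes lower, although 2 members were lower at an unadjusted p under 0.05. In either direction, 3 of the 10 members had such a p, as had 5723 of the 19691 genes tested. DESeq2 called 1 member lower and limma-voom called 0. Of all 19691 genes tested, DESeq2 called 1708 lower and 1604 higher, and limma-voom 1050 lower and 729 higher. Over all genes, 992 were called lower and 770 higher, a split that became 674 and 1175 when libraries were scaled by total counts only, while the calls of the members stayed at 0 lower and 1 higher. There was no overlap between genotypes for 3 members, 2 with all Ocln-KO libraries below WT and 1 with all of them above, where 36.3% of all genes did not overlap (19.4% below and 16.9% above). The median log2 fold change of the members was 0.03, against 0.01 for all genes tested. Of the members' log2 fold changes, 4 were below 0 and 6 above it. Ocln-KO replicate 3 was the lowest or the highest of the 6 libraries for 4 of the 10 members, and for 46.8% of all genes tested.

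**Figure D1:**
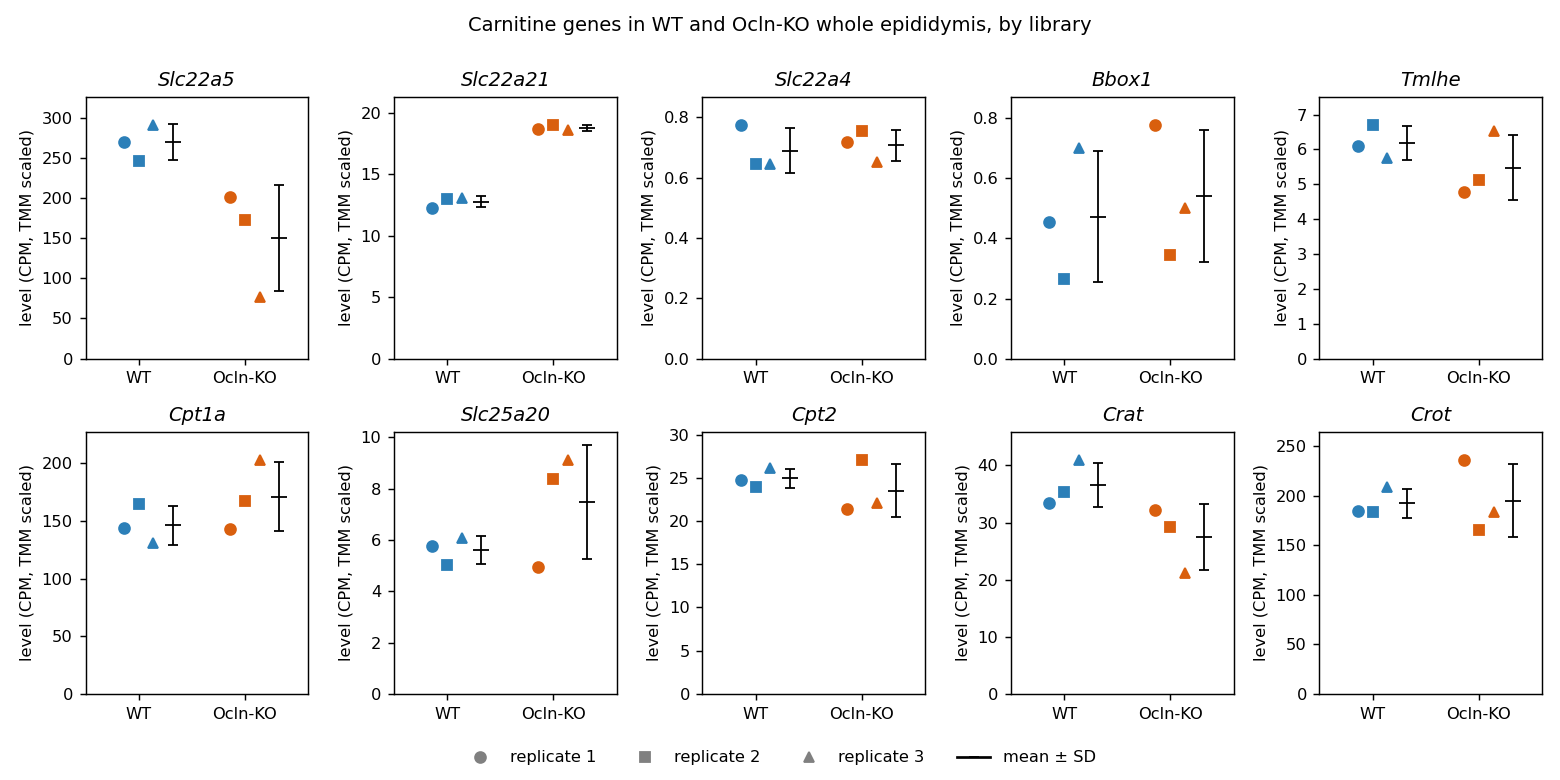
Level of each member in CPM (vertical axis, linear and starting at 0) in the 3 WT (blue) and 3 Ocln-KO (orange) libraries, with the mean and SD in black. Slc22a21 has all Ocln-KO libraries between 18.6 and 19.1 CPM, above WT, and Slc22a5 has all Ocln-KO libraries below WT with replicate 3 the lowest at 76.1 CPM.

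Slc22a5, the sodium-dependent high-affinity carnitine transporter, was the most abundant member per length. The WT libraries had 270 CPM in replicate 1, 247 CPM in replicate 2 and 291 CPM in replicate 3. The Ocln-KO libraries had 201, 172 and 76.1 CPM in replicates 1, 2 and 3. Every Ocln-KO library lay below every WT library, and Ocln-KO replicate 3 lay far below the other Ocln-KO libraries. The mean was 269 ± 22.4 CPM for WT against 150 ± 65.6 CPM for Ocln-KO. The log2 fold change of Slc22a5 was -0.84 (standard error 0.31, 95% interval from -1.56 to -0.13), and with an FDR of 0.12 from edgeR's test it was not called. Without Ocln-KO replicate 3 the difference was smaller and the spread narrower, with a log2 fold change of -0.53 and an FDR of 0.0301. DESeq2, which called more genes lower than edgeR (1708 against 992), gave an FDR of 0.0232 on all libraries. These were the only 2 of 14 alternatives with an FDR under 0.05, and the FDR reached 0.282 without WT replicate 3. The log2 fold change was below 0 in all 14, from -1.11 without Ocln-KO replicate 1 to -0.53.

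Slc22a21, described as a carnitine transporter of mouse testis and peroxisomes, rose in Ocln-KO. It had 12.3, 13.0 and 13.1 CPM in WT replicates 1, 2 and 3, and 18.7, 19.1 and 18.6 CPM in Ocln-KO replicates 1, 2 and 3. The libraries of each genotype lay close together, with 444 to 485 counts in WT and 599 to 630 counts in Ocln-KO. The means of 12.8 ± 0.443 and 18.8 ± 0.227 CPM gave a log2 fold change of 0.56 (standard error 0.11, 95% interval from 0.30 to 0.81, FDR = 0.028 from edgeR's test), a rise of 47.0%. Ocln-KO replicate 3, which had the lowest Slc22a5, had almost the same Slc22a21 as the other Ocln-KO libraries, and without it the FDR was 0.0386. The call was lost without WT replicate 1, 2 or 3 (FDR = 0.117, 0.0788 and 0.0933) or without Ocln-KO replicate 2 (FDR = 0.07), while the log2 fold change stayed between 0.53 and 0.57 when any 1 library was left out. Over all genes, the 770 higher calls fell to 4, 85 and 16 without WT replicates 1, 2 and 3 and to 220 without Ocln-KO replicate 2.

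Slc22a4, a transporter of ergothioneine and organic cations that also moves carnitine, was near the limit of the depth. It had 29, 22 and 24 counts in WT replicates 1, 2 and 3 and 23, 24 and 22 counts in Ocln-KO, or 0.689 ± 0.0749 and 0.707 ± 0.0518 CPM. The genotypes overlapped, with a log2 fold change of 0.04 (95% interval from -0.82 to 0.89, FDR = 0.96 from edgeR's test). With these libraries, a difference of Slc22a4 inside that interval cannot be told from no difference.

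The shares of the OCTN reads that went to Slc22a5 and Slc22a21 did not overlap between the genotypes. Slc22a5 took 95.4, 94.8 and 95.5% of all OCTN reads in WT replicates 1, 2 and 3, and 91.2, 89.7 and 79.8% in Ocln-KO. Slc22a21 took 4.34, 5.001 and 4.28% in WT and 8.45, 9.92 and 19.5% in Ocln-KO, and Slc22a4 stayed under 1% in each library. A ratio of counts within a library does not depend on how libraries are scaled. There were 0.0455, 0.0528 and 0.0449 reads of Slc22a21 per read of Slc22a5 in WT replicates 1, 2 and 3, and 0.0928, 0.111 and 0.245 in Ocln-KO. The log2 ratio was -4.39 ± 0.13 in WT and -2.88 ± 0.75 in Ocln-KO, a difference of 1.51 without overlap. By an exact two-sided permutation test over the libraries p was 0.1, the smallest that 3 against 3 can give, and 0.2 after adjustment over the 6 pairs of members compared. Without Ocln-KO replicate 3 the difference was 1.09. The log2 ratio of Slc22a5 to Slc22a4 was 8.58 ± 0.19 in WT and 7.58 ± 0.66 in Ocln-KO, again without overlap (exact permutation p = 0.1, adjusted p = 0.2), and without Ocln-KO replicate 3 the difference went from -1.001 to -0.63.

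**Figure D2:**
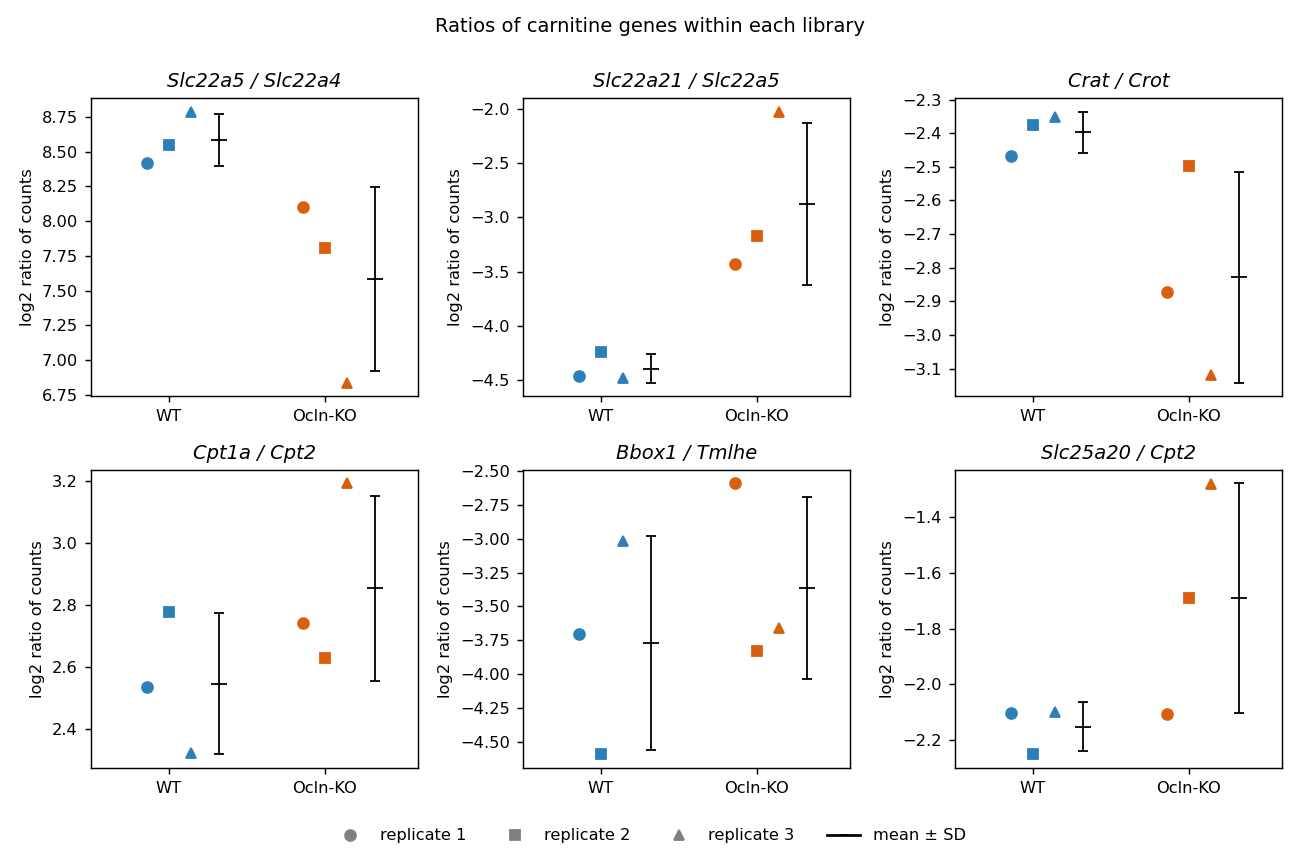
Log2 ratio of the counts of 2 members within each library (vertical axes, each with its own range) for the 6 pairs compared, in WT (blue) and Ocln-KO (orange), with the mean and SD in black. The genotypes do not overlap for Slc22a5/Slc22a4, Slc22a21/Slc22a5 and Crat/Crot, and overlap for the other pairs.

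The windows of 250 bases before 1 start site each of Slc22a5 and Slc22a4 (RefSeq, GRCm38.p6) are shown. These OCTN genes, alike in coding sequence, had the highest and the second lowest level of the members per length in WT. The window of Slc22a5 is chr11:53891704-53891953 and that of Slc22a4 is chr11:54028105-54028354, both on the minus strand and written 5′ to 3′, with GC boxes in capitals.
Slc22a5: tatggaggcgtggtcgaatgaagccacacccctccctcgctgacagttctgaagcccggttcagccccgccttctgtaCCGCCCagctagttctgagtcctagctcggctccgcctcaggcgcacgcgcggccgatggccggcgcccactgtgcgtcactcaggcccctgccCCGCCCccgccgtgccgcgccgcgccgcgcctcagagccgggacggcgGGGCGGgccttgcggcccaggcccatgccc
Slc22a4: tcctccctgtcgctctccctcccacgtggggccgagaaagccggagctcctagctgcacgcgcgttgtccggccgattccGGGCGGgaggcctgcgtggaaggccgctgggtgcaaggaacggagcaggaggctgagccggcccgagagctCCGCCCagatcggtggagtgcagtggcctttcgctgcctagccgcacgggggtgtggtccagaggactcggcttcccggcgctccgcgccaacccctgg
In RefSeq, Slc22a5 reaches to 53891796 and Slc22a4 to 54030040, so both windows overlap the span of their gene. Windows before any other start site of these genes were not searched. Both windows are rich in G and C (73.6% and 71.2%). GGGCGG, the GC box bound by SP factors, occurs on either strand 3 times before Slc22a5 and 2 times before Slc22a4, and 32.7% of the 32851 windows in the table hold at least 1. The CCAAT box, held by 33.8% of all windows on either strand, occurs in neither. The same holds for the TATA box (TATAAA, in 12.4% of windows) and for the half-site of nuclear receptors (AGGTCA, in 14% of windows). Of the 10 members, 7 had a window in the table, and those of Slc22a21, Tmlhe and Crat are not shown here. AGGTCA occurred before 1 of the 7, Cpt1a.

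Among the members, carnitine synthesis was represented by Tmlhe and Bbox1, with at most 229 and 26 counts in any library. Tmlhe, the trimethyllysine hydroxylase of mitochondria, lies on a scaffold assigned to chromosome X and had 6.09, 6.71 and 5.76 CPM in WT replicates 1, 2 and 3. It had 4.77, 5.12 and 6.54 CPM in Ocln-KO replicates 1, 2 and 3, and replicate 3 reached into the WT range. The log2 fold change of Tmlhe was -0.18 (95% interval from -0.63 to 0.27, FDR = 0.595 from edgeR's test), which became -0.32 without Ocln-KO replicate 3 (FDR = 0.322) and -0.08 without replicate 1. Bbox1, which makes carnitine from gamma-butyrobetaine (chromosome 2, 110262697 to 110314560), had 17, 9 and 26 counts in WT replicates 1, 2 and 3 and 25, 11 and 17 counts in Ocln-KO. At 0.473 ± 0.219 and 0.543 ± 0.220 CPM the genotypes of Bbox1 overlapped widely, and the 95% interval of its log2 fold change of 0.19 ran from -1.06 to 1.45 (FDR = 0.848 from edgeR's test). With these libraries, a change of Bbox1 within that interval cannot be told from no change. The log2 ratio of Bbox1 to Tmlhe was -3.77 ± 0.79 in WT and -3.36 ± 0.67 in Ocln-KO (exact permutation p = 0.5, adjusted p = 0.5 over the 6 pairs), and the difference of 0.41 fell to 0.0015 without WT replicate 2 and to 0.03 without Ocln-KO replicate 1, and was 0.79 and 0.65 without WT replicate 3 and Ocln-KO replicate 2.

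The mitochondrial shuttle was not called at any of its 3 steps. Cpt1a, the acyltransferase of the outer membrane that sets the rate of long-chain entry (chromosome 19, 3322334 to 3385733), had 143, 164 and 131 CPM in WT replicates 1, 2 and 3 and 143, 167 and 203 CPM in Ocln-KO. Only Ocln-KO replicates 2 and 3 lay above the WT libraries, and the log2 fold change of Cpt1a was 0.23 (95% interval from -0.11 to 0.56, FDR = 0.34 from edgeR's test), or 0.09 without Ocln-KO replicate 3. Slc25a20, the exchanger of carnitine and acylcarnitine in the inner membrane (chromosome 9, 108662088 to 108684641), had 5.75, 5.01 and 6.09 CPM in WT replicates 1, 2 and 3. In Ocln-KO it had 4.96, 8.38 and 9.12 CPM, so that replicate 1 was the lowest of all libraries and replicates 2 and 3 the highest. Its log2 fold change of 0.41 (95% interval from -0.17 to 0.99, FDR = 0.315 from edgeR's test) became 0.64 when Ocln-KO replicate 1 was left out or 0.25 when replicate 3 was, and it was called in none of the 14 alternatives. Cpt2, which hands the acyl group back to CoA in the matrix (chromosome 4, 107903981 to 107923610), had 24.8, 23.9 and 26.1 CPM in WT replicates 1, 2 and 3 and 21.4, 27.1 and 22.1 CPM in Ocln-KO, which straddled the WT range. The log2 fold change of Cpt2 was -0.08 (95% interval from -0.36 to 0.19, FDR = 0.682 from edgeR's test), and leaving out a library moved it as far as -0.20 (no Ocln-KO replicate 2) or -0.02 (no Ocln-KO replicate 1).

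The ratios within libraries showed the same overlap. The log2 ratio of Cpt1a to Cpt2 was 2.55 ± 0.23 in WT and 2.85 ± 0.30 in Ocln-KO (exact permutation p = 0.3, adjusted p = 0.36). That of Slc25a20 to Cpt2 was -2.15 ± 0.09 in WT and -1.69 ± 0.41 in Ocln-KO (exact permutation p = 0.3, adjusted p = 0.36), with Ocln-KO replicate 1, at -2.11, inside the WT range. Without Ocln-KO replicate 3 the differences of these ratios went from 0.31 to 0.14 and from 0.46 to 0.26, and that of Cpt1a to Cpt2 was 0.20 without WT replicate 3.

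Of the acyltransferases outside the shuttle, Crat and Crot differed in their pattern. Crat, the carnitine acetyltransferase that buffers acetyl-CoA (chromosome 2, 30400471 to 30415813), had 33.3, 35.4 and 40.9 CPM in WT replicates 1, 2 and 3 and 32.2, 29.3 and 21.1 CPM in Ocln-KO. The lowest WT library and the highest Ocln-KO library were close, and Ocln-KO replicate 3 was again the lowest. The log2 fold change of Crat was -0.41 (standard error 0.16, 95% interval from -0.79 to -0.03), with an unadjusted p of 0.0382 and an FDR of 0.147 from edgeR's test, and the FDR stayed above 0.05 in all 14 alternatives. Without Ocln-KO replicate 3 the log2 fold change was -0.25. In GENCODE, 470 of the 5388 exonic bases of Crat are shared with genes of the opposite strand, and the strand setting of the counting is not stated.

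Crot, the peroxisomal carnitine octanoyltransferase (chromosome 5, 8966033 to 8997324), had 184, 184 and 209 CPM in WT replicates 1, 2 and 3. The Ocln-KO libraries had 236, 165 and 183 CPM, so that replicate 1 was above all WT libraries, replicate 2 below them and replicate 3 just below the lowest of them. Its log2 fold change of 0.02 (95% interval from -0.30 to 0.34, FDR = 0.945 from edgeR's test) became -0.14 without Ocln-KO replicate 1. Of its 5456 exonic bases, 166 are shared with a gene of the opposite strand and 39 with one of the same strand. The log2 ratio of Crat to Crot was -2.40 ± 0.06 in WT and -2.83 ± 0.31 in Ocln-KO, without overlap between the genotypes (exact permutation p = 0.1, adjusted p = 0.2 over the 6 pairs). In Ocln-KO the ratio was 0.137, 0.177 and 0.115 reads of Crat per read of Crot in replicates 1, 2 and 3, against 0.181 to 0.196 in WT. The difference went from -0.43 to -0.29 without Ocln-KO replicate 3.

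**Figure D3:**
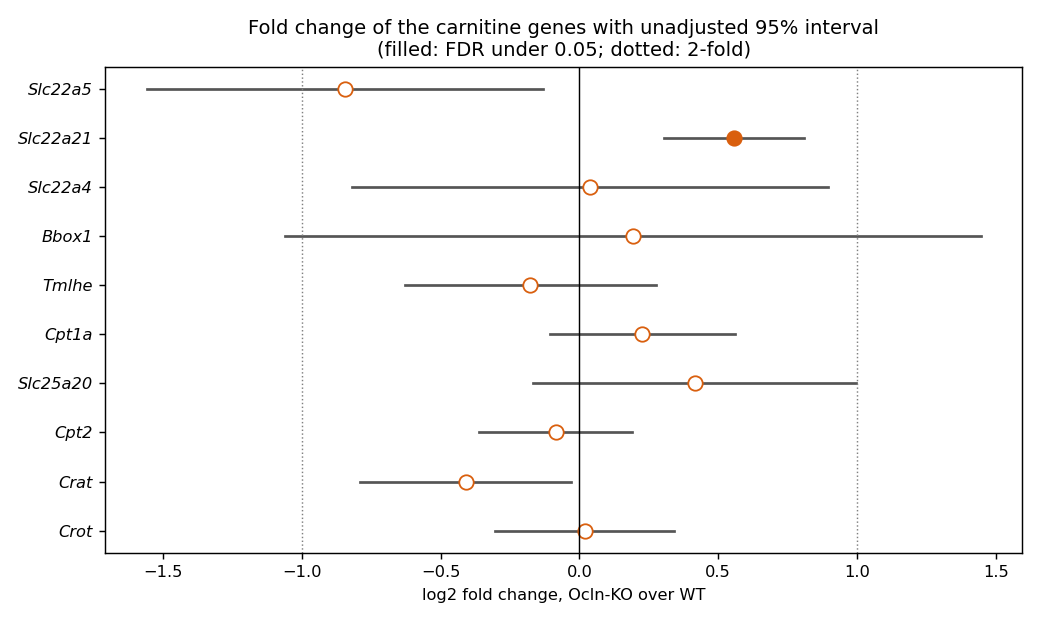
Log2 fold change of each member, Ocln-KO over WT (horizontal axis), with its 95% interval, which is not adjusted for the number of genes. Slc22a21 is the filled point, called at 0.56, and the interval of Bbox1, from -1.06 to 1.45, is the widest.

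Levels of different genes were compared as CPM per kb of exon, with the exons of all GENCODE transcripts of a gene merged. In WT, Slc22a5 was highest at 80.3 to 94.8 CPM per kb, followed by Crot at 33.7 to 38.3, Cpt1a at 17.1 to 21.5, Cpt2 at 10.01 to 10.9 and Crat at 6.19 to 7.60 CPM per kb. Lower levels followed for Slc22a21 at 3.37 to 3.58, Tmlhe at 2.56 to 2.98, Slc25a20 at 1.03 to 1.26, Slc22a4 at 0.253 to 0.304 and Bbox1 at 0.0599 to 0.159 CPM per kb. No neighbours in this order overlapped between the WT libraries. In Ocln-KO, Slc22a5 ran from 24.8 to 65.6 CPM per kb, which overlapped both Crot, at 30.3 to 43.3, and Cpt1a, at 18.7 to 26.5 CPM per kb. Slc22a21, at 5.12 to 5.23 CPM per kb, lay within the Ocln-KO range of Crat, at 3.92 to 5.98. The other neighbours stayed apart in Ocln-KO as well.

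Genes that work beside the members were taken from lists. Of 9 other carnitine genes, 7 were tested and none was called by edgeR, 2 being lower at an unadjusted p under 0.05. Such a p, in either direction, was found for 5723 of the 19691 genes tested. DESeq2 called 2 lower and limma-voom 0, against 1708 and 1050 of all genes tested. Those with the largest differences were Slc16a9, a plasma membrane carrier linked to carnitine export, at 11.7 ± 2.08 and 7.03 ± 1.93 CPM (FDR = 0.0909, with 910 of 3869 exonic bases shared with genes of the opposite strand), and Shmt2, a mitochondrial serine hydroxymethyltransferase, at 235 ± 22.7 and 165 ± 31.6 CPM (FDR = 0.0711), in WT and Ocln-KO. Both are named after their values were seen. Aldh9a1, which oxidizes trimethylaminobutyraldehyde in carnitine synthesis, had a log2 fold change of 0.05 (FDR = 0.803). The muscle isoform Cpt1b and the amino acid and carnitine transporter Slc6a14 had at most 5 and 1 counts in any library. Of 21 other SLC22 transporters, 8 were tested and 1 was called, where 8.95% of all genes tested were called. That gene, Slc22a23, fell from 13.1 ± 1.38 to 7.29 ± 0.336 CPM, a log2 fold change of -0.85 (FDR = 0.0225). Its FDR was 0.0999, 0.0555 and 0.0908 without WT replicates 1, 2 and 3, fits that called 19, 145 and 40 genes lower in all. Without Ocln-KO replicate 2 the FDR of Slc22a23 was 0.0508.

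Mitochondrial beta-oxidation, which receives the acyl groups that the shuttle carries, had 15 genes, all tested. Of these, 4 were called lower and 1 higher, with a median log2 fold change of -0.10. Of all genes tested, 5.04% were called lower and 3.91% higher. Hadh, the short-chain hydroxyacyl-CoA dehydrogenase, fell from a mean of 115 ± 5.86 to 83.5 ± 2.27 CPM, a log2 fold change of -0.47 (FDR = 0.0225). Acaa2, the thiolase of the matrix, fell from 52.3 ± 1.13 to 36.7 ± 4.95 CPM, a log2 fold change of -0.51 (FDR = 0.035). The enoyl-CoA isomerases Eci1 and Eci2 fell by 0.45 and 0.52 on the log2 scale (FDR = 0.0469 and 0.0287). Eci1 was called in only 3 of 14 alternatives and in none of the fits that left out a library. Acadl, the long-chain acyl-CoA dehydrogenase, rose from 18.5 ± 2.88 to 28.3 ± 3.35 CPM, a log2 fold change of 0.61 (FDR = 0.0453). The trifunctional protein genes Hadha and Hadhb, with log2 fold changes of -0.16 and -0.06, were not called. The count of 4 lower genes became 0 without WT replicate 1, 2 or 3, and it was 2, 1 and 3 without Ocln-KO replicates 1, 2 and 3. Over all genes, the 992 lower calls fell to 19, 145 and 40 without WT replicates 1, 2 and 3. Without Ocln-KO replicate 3, Hadh and Eci2 were called again (FDR = 0.021 and 0.0412), Acaa2 and Eci1 were not (FDR = 0.0564 and 0.0913), and the remaining call was another gene of the list. Acadl was called in only 1 of these 6 fits, that without Ocln-KO replicate 1. Acadvl had the highest log2 fold change of the list, 2.26, and was not called (FDR = 0.217). It had 147 counts in Ocln-KO replicate 2 and 7 to 20 in the other libraries. Of its 2686 exonic bases, 1151 are shared with Dvl2 on the opposite strand. Its values are uncertain, and whether this overlap accounts for the low counts was not tested.

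Peroxisomal beta-oxidation, whose products Crot and Crat join to carnitine, had 11 genes, of which 10 were tested and 2 were called, both lower, with a median log2 fold change of -0.18. The share called lower over all genes tested was 5.04%. Acox3, an acyl-CoA oxidase of branched chains, fell from 666 ± 42.4 to 423 ± 51.5 CPM, a log2 fold change of -0.66 (FDR = 0.0227). Ehhadh, the peroxisomal bifunctional enzyme, fell from 34.5 ± 2.38 to 26.0 ± 1.83 CPM, a log2 fold change of -0.41 (FDR = 0.0448). The count of 2 became 0 without WT replicate 1, 2 or 3 and 1 without Ocln-KO replicate 2. In these fits 19, 145, 40 and 342 of all genes were called lower, against 992 with all libraries. Acox3 was called in 10 of 14 alternatives and Ehhadh in 6 of 14, which also missed the threshold without Ocln-KO replicate 1 (FDR = 0.0818).

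Of 10 genes that regulate the members or their enzymes, 1 was called, where 8.95% of all genes tested were called. Their median log2 fold change was -0.12. Ppargc1a, the coactivator of mitochondrial biogenesis, fell from 9.19 ± 1.15 to 4.24 ± 1.30 CPM, a log2 fold change of -1.12 (FDR = 0.04), and was the only DEG among the members and these lists. The call was lost without WT replicate 1, 2 or 3 (FDR = 0.135, 0.115 and 0.108) or Ocln-KO replicate 2 (FDR = 0.0885). In the same fits 19, 145, 40 and 342 of all genes were called lower, against 992 with all libraries. Ppara, the receptor that activates many genes of fatty acid oxidation, had a log2 fold change of 0.09 (FDR = 0.8), and Acacb, which makes the malonyl-CoA that inhibits CPT1, one of -0.22 (FDR = 0.631). Pdzk1, a scaffold that binds OCTN proteins, varied between 32.6 and 86.6 CPM in Ocln-KO against 42.7 to 61.6 CPM in WT (log2 fold change 0.34, FDR = 0.558). Its values are uncertain, as 1482 of its 3556 exonic bases are shared with genes of the opposite strand.

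**Figure D4:**
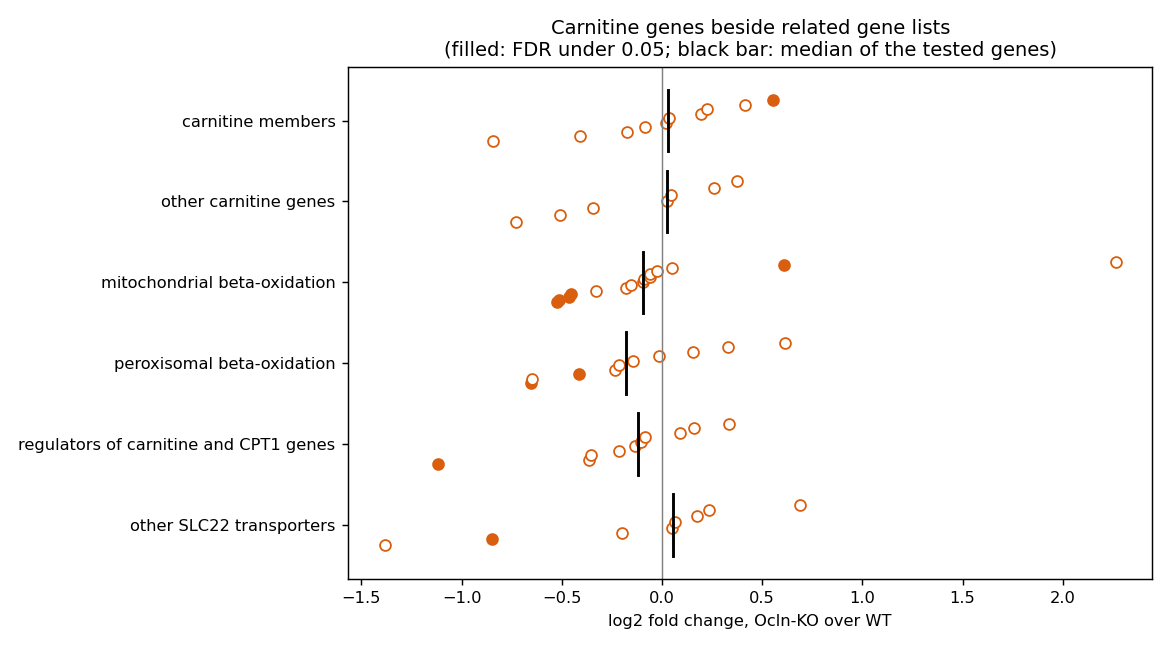
Log2 fold change, Ocln-KO over WT (horizontal axis), of each tested gene of the carnitine members and of 5 related lists, with genes called at an FDR under 0.05 filled and the median of each list as a black bar. The medians lie between -0.18 for peroxisomal beta-oxidation and 0.06 for the other SLC22 transporters, and calls lie on both sides of 0.

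Levels of several markers of cell types and regions differed between the genotypes, and their part in the values above was not tested. Of all genes tested, 5.04% were called lower and 3.91% higher. An unadjusted p under 0.05 was found for 5723 of these 19691 genes. Crisp1, a product of the distal epididymis and nearly all of the sum of its list of 3 markers, had 16769, 12488 and 15417 CPM in WT replicates 1, 2 and 3 and 9957, 9160 and 4439 CPM in Ocln-KO (log2 fold change -0.92, FDR = 0.0855, with 0 of 2 tested markers called by edgeR and 1 with an unadjusted p under 0.05), with Ocln-KO replicate 3 lowest, as in Slc22a5 and Crat. Crisp1 was called in 3 of 14 alternatives, which were DESeq2 (FDR = 0.00494), no count filter (FDR = 0.034) and the fit without Ocln-KO replicate 3 (log2 fold change -0.64, FDR = 0.0431). Hoxa11 of that list was at 0. Of 9 markers of the initial segment and caput, 6 were tested and 1 was called higher, and their sum ran from 6241 to 9016 CPM in WT and from 5607 to 16932 CPM in Ocln-KO. Gpx5 carried that call, with 26.3 to 172 CPM in the WT libraries against 256, 7264 and 10039 CPM in Ocln-KO replicates 1, 2 and 3 (FDR = 0.0359). The call of Gpx5 was lost without WT replicate 1, 2 or 3 (FDR = 0.14, 0.074 and 0.132) or Ocln-KO replicate 2 (FDR = 0.0762). In these fits 4, 85, 16 and 220 of all genes were called higher, against 770 with all libraries. The initial segment genes Rnase10, Cst11 and Lcn9 had at most 20 counts in any library, while Ros1 of the same list had 208 to 420 CPM. The labelled whole epididymis thus held Crisp1 and Adam7, a caput marker at 5071 to 9304 CPM, in abundance and some markers of the initial segment hardly at all.

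Clear cell markers were called lower in 4 of 5, with summed levels of 84.5 to 106 CPM in WT against 42.2 to 52.9 CPM in Ocln-KO. Over all genes tested, 5.04% were called lower and 3.91% higher. Of the 5 general epithelial and 5 basal cell markers, 1 of each was called, both higher. The epithelial call was Krt19 (log2 fold change 0.79), but 4 of the 5 epithelial markers were below 0, with a median of -0.20. Among the basal markers 4 of 5 were above 0, with a median of 0.26. The epithelial sum was 1453 to 1624 CPM in WT against 1234 to 1607 CPM in Ocln-KO, and the basal sum 185 to 197 against 208 to 242 CPM. None of the 6 macrophage markers was called by edgeR, although all 6 had an unadjusted p under 0.05, as had 5723 of the 19691 genes tested. The macrophage sum was 96.4 to 104 CPM in WT against 111 to 209 CPM in Ocln-KO. Lymphocyte markers, 2 of 5 tested, 0 called by edgeR and 1 with an unadjusted p under 0.05, summed to 1.62 to 2.02 CPM in WT against 3.40 to 4.59 CPM in Ocln-KO. Smooth muscle markers were called higher in 2 of 5, with sums of 1079 to 1295 CPM in WT against 1493 to 1972 CPM in Ocln-KO. Spermatid and sperm markers, 0 of 6 called by edgeR and 0 with an unadjusted p under 0.05, summed to 189 to 253 CPM in WT against 64.2 to 270 CPM in Ocln-KO, with Ocln-KO replicate 3 the lowest. Sums of adipocyte markers (0 of 5 called, 3 with an unadjusted p under 0.05) and blood markers (1 of 3 called lower) were at most 9.06 and 44.5 CPM in WT against 3.55 and 11.4 CPM in Ocln-KO, and those of skeletal muscle (1 of 2 tested called higher) at most 2.24 and 5.62 CPM.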

How the data were processed

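Whole epididymis RNA of 3 WT and 3 Ocln-KO libraries was compared, grouped by the sample titles. The values the authors deposited are raw counts of reads per gene, without normalization. Per the study's methods and processing notes, reads were trimmed, aligned to GRCm38 with HISAT2 2.0.4 and assigned to genes with HTSeq. Counting mode, strand setting and the treatment of reads with several alignments are not given in the sources used here, so overlapping and near-identical genes could lose or share reads. Gapdh had only 258 to 434 counts in a library, and whether reads of it were lost was not tested. One extraction protocol names another tissue than the epididymis of the labels. In the table, 28 symbols had been turned into dates or numbers (0.145% of counts), none of them a member. Each column was matched to its sample by title.

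The analysis used R 4.3.3 and, as the main test, edgeR 4.0.16 (filterByExpr, TMM, estimateDisp, glmQLFit, glmQLFTest), which left 19691 of 32046 genes with a count, and the FDR is over all of them. Intervals are the log2 fold change ± its standard error times the t quantile of the fit. DESeq2 1.42.0 and limma-voom 3.58.1, other scaling and filters, and leaving out each library were alternatives. Ratios used a prior count of 0.5. The code of the fits was run on simulated counts with known fold changes, which is no test of the calls given here. Lengths and overlaps come from GENCODE M21 and promoters from RefSeq. Every member is named, as is each gene of a pathway list with an FDR under 0.05. The members and lists were chosen with earlier results of these data known.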

Additional observations from a re-analysis of the deposited data

How the results depend on the processing

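The direction of the members with a log2 fold change of at least 0.08 in size held under the 14 alternatives, apart from Bbox1. With each library left out in turn, the log2 fold change of Bbox1 ran from -0.15 to 0.59, of Crot from -0.14 to 0.13 and of Slc22a4 from -0.0099 to 0.13. Members called lower went from 0 to 1 with DESeq2, and 0 to 1 were called lower and 0 to 1 higher with a library left out. Over these fits, the genes called lower ran from 0 to 1 for other carnitine genes, 0 to 3 for mitochondrial and 0 to 2 for peroxisomal beta-oxidation, and 0 to 1 for regulators and for other SLC22 transporters. Those called higher ran from 0 to 1 for mitochondrial beta-oxidation and for regulators. DESeq2 called 2 other carnitine genes lower and no count filter called 1. With total counts only, 1 peroxisomal gene was called lower. The ratios of member pairs kept their sign, with that of Bbox1 to Tmlhe as low as 0.0015, and Cpt2 reached -0.0022 with total counts only. Bbox1 gave no value where at least 10 counts were required in every library. With 3 libraries a genotype, differences of Slc22a4 and Bbox1, at 9 to 29 counts, are limited by depth.

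The labels do not state whether their replicate numbers pair the libraries, while the study's methods speak of 3 pairs of mice. Deviations from the genotype means correlated at -0.0525, -0.0315 and -0.00256 for numbers 1, 2 and 3, and none of the Ocln-KO libraries correlated best with the WT library of its own number. With only 3 libraries a genotype, these correlations cannot decide whether the libraries are paired. With the replicate number as a block, 0 members were called higher, with FDR = 0.0965 for Slc22a21, and 0 genes were called lower or higher in mitochondrial beta-oxidation, and 0 lower in peroxisomal beta-oxidation, regulators and other SLC22 transporters. Over all genes, the block left 31 lower and 10 higher calls, against 992 and 770 without it, DESeq2 gave 1708 and 1604 and total counts only 674 and 1175. Without WT replicates 1, 2 and 3 there were 19, 145 and 40 lower and 4, 85 and 16 higher calls. Leaving out Ocln-KO replicate 2 gave 342 and 220.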
